A study of Mus musculus with 101 samples.

Results

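The cytosolic ribosomal protein genes encode the proteins of the 60S and 40S ribosomal subunits. Members were taken by symbol from a table of 15423 mouse genes: Rpl or Rps followed by a digit, or Rpsa, Rplp0, Rplp1 or Rplp2. Of 100 symbols that matched, 9 Rps6k kinase genes and 5 pseudogenes with -ps in the symbol were left out, which gave 86 members. They comprised 52 genes named for the large subunit, 33 named for the small subunit, and Rps19bp1, which is named for binding Rps19 and is not a ribosomal protein. All 86 were among the 13288 genes with a mean of at least 0.5 normalized counts, the set tested in every comparison.

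The study asked whether benzo[a]pyrene (BaP), a polycyclic aromatic hydrocarbon, given to pregnant F0 mice alters the germ cells of their descendants. RNA was sequenced from primordial germ cells in the gonads of single embryos of the OG2 strain, which carries EGFP under a Pou5f1 promoter, and the cells were sorted by FACS for that fluorescence. F0 dams received the vehicle alone or BaP by mouth, in mg/kg/day at 0.033 (lowest dose), 0.2 (middle dose) and 2 (highest dose). Dosing for the F1 embryos ended earlier in gestation than dosing of the F0 dams behind the F2 and F3 embryos, so dosing window and generation cannot be told apart where F1 is compared with F2 or F3.

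Of 101 embryos, 48 were female and 53 male. The shared first part of the embryo identifiers was taken as the litter, which the labels do not state, and gave 56 litters. Vehicle embryos numbered 5 females and 5 males in F1, 6 and 6 in F2, and 6 and 6 in F3. At 0.033 mg/kg/day there were 2 females and 2 males in F1, 3 and 3 in F2, and 4 and 4 in F3. The 0.2 mg/kg/day groups held 5 females and 6 males in F1, 3 and 3 in F2, and 2 and 4 in F3. The 2 mg/kg/day groups held 5 females and 8 males in F1, 3 and 3 in F2, and 4 females and 3 males in F3. Pooled over generations, the sex comparisons below rest on 17 females and 17 males after vehicle and on 31 females and 36 males after BaP.

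A ribosome is built in the nucleolus from ribosomal RNA and ribosomal proteins, with the help of RNA polymerase I, a 5S particle that contains Rpl5 and Rpl11, and a large set of assembly factors. Most ribosomal protein mRNAs begin with a 5′ terminal oligopyrimidine (TOP) tract, a run of C and T letters through which mTOR and Larp1 adjust their translation together. Female germ cells of the embryo enter meiosis with both X chromosomes active, while male cells move toward mitotic arrest with a single X. By the methods, embryos of every generation were collected at the same age.

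Depth was read back from the deposited values, which were whole multiples of the worth of 1 read in 99 of 101 embryos within a tolerance of 0.05 reads. Recovered totals ran from 5004382 to 87240533 reads per embryo with a median of 7789673. These are reads counted on the genes of the table, which is not the number sequenced or mapped. At least 473311 of those reads fell on the members in every such embryo. A set of 11 libraries, all F1 and from 6 litters, held more than 20000000 reads each, and the deepest of the other libraries held 12211582. These 11 libraries came from 5 females and 6 males and stood apart from the other F1 embryos in the members' summed share, as described below.

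The germ cell identity of the samples was checked against marker genes. All 10 germ cell markers were detected, with Dppa3, a germ cell chromatin factor, the most abundant at a median of 1690 normalized counts in vehicle females and 2259 in vehicle males. The entry gene of meiosis, Stra8, had a median of 450 in vehicle females and 1.23 in vehicle males. Sertoli cell markers, which belong to the supporting cells of the testis, summed to a median of 20.997 in vehicle females (13.5 to 37.4) and 640 in vehicle males (67.1 to 1222). Their most abundant gene, Cst9, had medians of 0 and 401, and all 8 Sertoli markers were higher in males. The part of the Sertoli signal in the sex differences of the members was not tested. In sorted bulk samples such as these, fewer cells of a type and less RNA per cell cannot be told apart.

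Members were abundant: their median normalized count was 907, against 6.97 over all genes of the table. Per kilobase of annotated transcript, high mean levels were those of Rpl23a at 3022 normalized counts, Rps6 at 2997, Rpl26 at 2646 and Rps14 at 2488. The median over members was 1053 per kilobase. At the other end stood Rpl3l, a paralogue of Rpl3 known from striated muscle, at 0.895 per kilobase. Rpl10l, an autosomal copy of the X-linked Rpl10 known from the testis, stood at 47.4. Next in the order came Rps15a at 88.8, Rpl22 at 108 and Rpl7l1 at 113. Rps15a has the longest annotated transcript of any member, 5179 bases, and its mean count was 460. Rpl23a and Rps6, neighbours in this order, differed by less than their spread over embryos.

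Several members share sequence with processed copies, and how the counting divided reads among copies is uncertain. The left-out copy Rpl34-ps1 had a mean normalized count of 753, close to the 764 of Rpl34. Smaller copies were Rplp2-ps1 at 225, Rpl31-ps12 at 199, Rps15a-ps6 at 88.1, Rps15a-ps4 at 40.8 and Rps19-ps3 at 35.4. The member listed as Rps4y2 is annotated as Rps4l, a transcribed processed pseudogene on chromosome 6, and reads of Rps4x could be counted there. Rps3a is listed in the annotation as Rps3a1, and the other 84 members matched under their own symbol.

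Together the members held 4.70% to 12.1% of an embryo's normalized counts, with a median of 8.54%. The share ran from 5.38% to 9.89% with a median of 8.52% in vehicle females, and from 5.48% to 10.5% with a median of 8.47% in vehicle males. In exposed embryos it ran from 4.70% to 12.1% with a median of 8.38% in females, and from 5.94% to 10.6% with a median of 8.70% in males. These ranges overlapped over most of their length. By generation the mean share was 7.98% ± 1.72 (SD, n = 38) in F1, 8.91% ± 0.684 (SD, n = 30) in F2 and 8.54% ± 0.777 (SD, n = 33) in F3. Brothers and sisters of 41 litters with 1 embryo of each sex differed by a median of 0.561 percentage points and by at most 3.20.

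**Figure D1:**
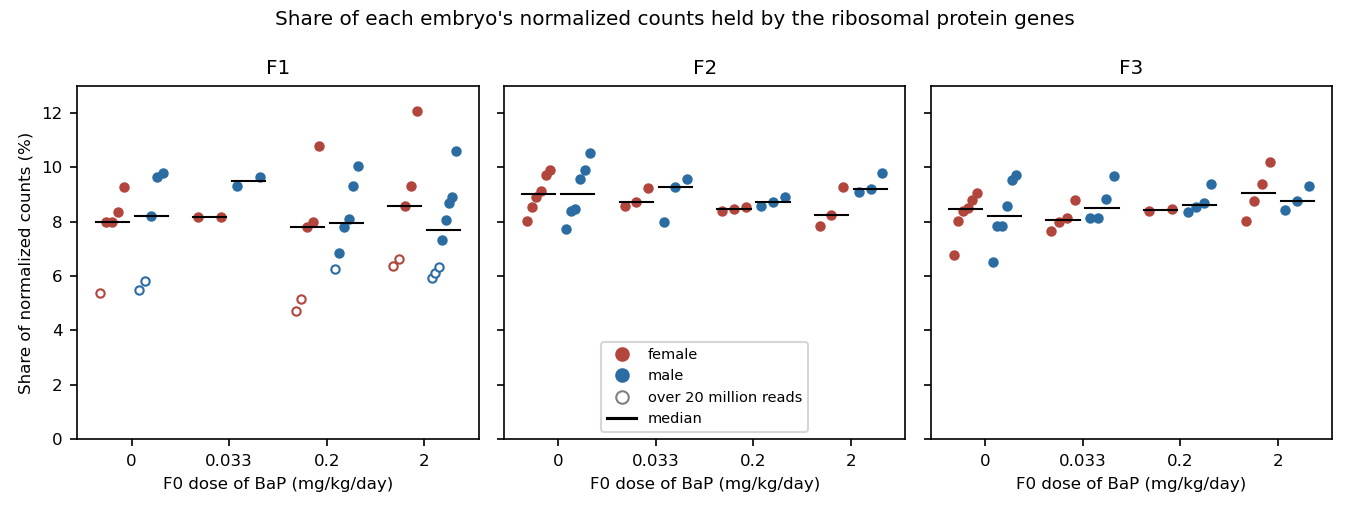
Share of each embryo's normalized counts held by the 86 members (y axis, percent) by F0 dose of BaP (x axis, mg/kg/day), with 1 panel per generation. Each point is an embryo, open points are the 11 F1 libraries of more than 20000000 reads, which reached at most 6.64%, and bars are group medians.

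The lowest shares in F1 belonged to the deep libraries. Their shares ran from 4.70% to 6.64% with a median of 5.94% (n = 11), while the other F1 embryos ran from 6.85% to 12.1% with a median of 8.58% (n = 27). These ranges did not overlap, and both sexes and 3 of the 4 dose groups held deep libraries. In a limma fit with log2 of the recovered reads as a covariate, the median slope was -0.21 log2 units per doubling of reads over the members and 0.02 over all genes tested. The slope was below 0 for 75 of 86 members. Its median was -0.56 over the 10 members with transcripts under 500 bases and -0.17 over the 32 members of 1000 bases or more. Depth, litter, collection time and the cells sorted cannot be told apart as the source.

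Short transcripts also varied most between embryos of a group. After group means were removed, the SD on the log2 scale had a median of 0.32 over members, 0.35 over the 996 other genes with a mean of 200 or more, as 82 of 86 members had, and 0.45 over all genes tested. Rps28, a small-subunit protein encoded by a transcript of 437 bases, varied most and ran from 72.2 to 1329 normalized counts. Rpl38, a large-subunit protein known from a mouse skeletal patterning mutant, came next and ran from 100 to 1499. Rps29 ran from 137 to 1867, Rps27 from 95.9 to 820 and Rpl36 from 114 to 1043. The lowest value of each of these 5 genes belonged to an F1 embryo with a deep library, either female C4228.3 at 0.2 mg/kg/day or vehicle male C4232.2. In F1 females Rps28 had a median of 134 in the deep libraries and 689 in the others, with highest and lowest values of 151 and 559, so that these sets did not overlap. Rpl38 likewise ran from 100 to 278 in the 5 deep libraries of F1 females and from 378 to 1456 in the other 12. The steadiest members were Rpl6, Rpl4, Rpl10, Rps3 and Rpl14. Rpl6 ran only from 956 to 2040 and Rpl4 from 1267 to 2479. Across members, log2 SD and log2 transcript length had r = -0.505, a description over genes that share the same libraries. The 10 members under 500 bases had a median SD of 0.53, against 0.30 for the 32 of 1000 bases or more.

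Most members rose and fell together from embryo to embryo. Over the 101 embryos and with group means removed, the median r over 3655 pairs of members was 0.694, and 91.5% of pairs were above 0. A member's r with the mean of the other members had a median of 0.851, while for genes outside the list r with the mean of the members had a median of -0.0948. The highest was Rpl21 of the large subunit at 0.981, and the lowest was Rpl7l1 at -0.248. Other members that did not follow the rest were Rpl3l at -0.112, Rpl4 at 0.0149, Rpl10l at 0.0593, Rps2 at 0.0749 and Rps4y2 at 0.202. Embryos share depth and composition of their libraries, so r is a description here and carries no test. The genes outside the list whose values followed the members most closely were Rpl34-ps1 at 0.965, the cytochrome c oxidase genes Cox6b1 at 0.962 and Cox5b at 0.950, 1810027O10Rik at 0.961 and the ATP synthase gene Atp5j2 at 0.953.

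Members passed the test in the comparisons of the sexes. Among vehicle embryos, 18 of 86 members were higher in males and 6 were higher in females at an adjusted p under 0.05 in limma. That is 20.9% of members higher in males, against 27.9% of all genes tested, and 6.98% higher in females, against 28.8% of all genes tested. At an unadjusted p under 0.05 the count was 30 of 86 (34.9%), against 60.7% of all genes tested. The median difference (males minus females, log2) was 0.08 over members and -0.00 over all genes tested, with 60 of 86 members above 0. Large-subunit members had 12 higher in males and 4 higher in females of 52, and small-subunit members had 6 and 2 of 33. The split depended on how libraries were scaled: scaled by the sum of all genes that are not members, 14 members were higher in males and 13 in females, and the median over members was -0.01. That scaling moved the median of all genes tested to -0.09, and the differences are relative to it. Under that scaling 22.4% of all genes tested were higher in males and 32.4% in females. Without the F1 libraries of more than 20000000 reads, 29 members were higher in males and 6 in females, against 28.2% and 28.0% of all genes tested. With only vehicle male C4232.2 of F1 left out, the deepest library of all, 29 were higher in males as well, against 27.9% of all genes tested.

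**Figure D2:**
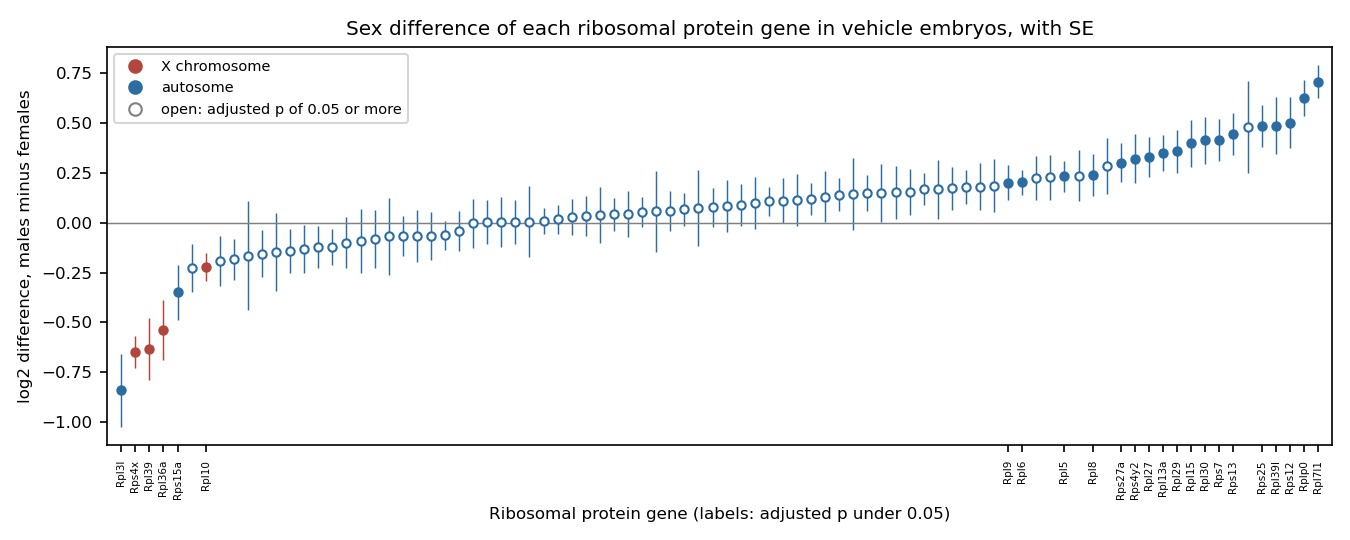
Difference between vehicle males and vehicle females (y axis, log2, males minus females, with SE) for each of the 86 members on the x axis, ordered by the difference; 17 embryos of each sex. Filled and labelled points passed an adjusted p of 0.05 in limma, red marks the 4 X-linked members, and the range runs from -0.84 (Rpl3l) to 0.71 (Rpl7l1).

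All 4 X-linked members were higher in females. Rps4x, a protein of the small subunit, ran from 1135 to 1911 normalized counts with a median of 1640 in vehicle females, and from 708 to 1194.5 with a median of 1004.5 in vehicle males. Every female was above the male median and 16 of 17 were above the highest male, so the groups overlapped by a single female. The difference was -0.65 (SE 0.08; adjusted p = 8.47e-11 in limma). Rpl39, a small protein that lines the peptide exit tunnel, ran from 278 to 666 with a median of 546 in females and from 117 to 509 with a median of 361 in males. For Rpl39, 16 of 17 females exceeded the male median, and the ranges overlapped. It differed by -0.63 (SE 0.16; adjusted p = 0.000330 in limma). Rpl36a, a large-subunit protein, ran from 321 to 694 with a median of 501 in females and from 137 to 511 with a median of 372 in males. Again 16 of 17 females exceeded the male median within overlapping ranges, and the difference was -0.54 (SE 0.15; adjusted p = 0.00132 in limma). Rpl10, which joins the large subunit late in its maturation, ran from 565 to 1006 with a median of 835 in females and from 515 to 912 with a median of 688 in males. Only 2 of 17 females were above the highest male, and the difference was the smallest of the 4 at -0.22 (SE 0.07; adjusted p = 0.00582 in limma). The X-linked members had a median difference of -0.58, the same as the -0.58 over the 527 X-linked genes tested. Of those X-linked genes, 308 were higher in females and 66 in males.

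Away from the X chromosome, Rpl3l and Rps15a were the members higher in females. Rpl3l was near the floor, from 0.619 to 3.25 with a median of 1.80 normalized counts in vehicle females and from 0.0945 to 1.68 with a median of 0.7102 in vehicle males. Its ranges overlapped and the difference of -0.84 (SE 0.19; adjusted p = 6.54e-05 in limma) is on the log2(normalized count + 0.5) scale, which understates changes of low genes. Rps15a, a small-subunit protein, ran from 299 to 654 with a median of 515 in females and from 172 to 564 with a median of 432 in males. Of the 17 females, 14 exceeded the male median, and the difference was -0.35 (SE 0.14; adjusted p = 0.0240 in limma). Rps15a did not pass when F1 male C3774.3 or C4232.2 was left out, with differences of -0.30 and -0.28.

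Among the members higher in males, Rplp0 and Rpl7l1 led. Rplp0 anchors the stalk of the large subunit that receives elongation factors; it ran from 798 to 1646 with a median of 1166 normalized counts in vehicle females and from 966 to 2333 with a median of 1910 in vehicle males. Of 17 males, 15 were above the highest female, and the groups overlapped through the remaining males. The difference was 0.63 (SE 0.09; adjusted p = 8.44e-09 in limma). The other stalk genes showed no such difference: Rplp1 had medians of 775 in females and 741 in males and differed by -0.19 (adjusted p = 0.191 in limma), and Rplp2 had medians of 921 and 1021 and differed by 0.11 (adjusted p = 0.479 in limma). Rpl7l1, a paralogue of Rpl7, ran from 182 to 284 with a median of 214 in females and from 233 to 471 with a median of 368 in males. Every male was above the female median and 15 of 17 were above the highest female. The difference of 0.71 (SE 0.08; adjusted p = 8.14e-12 in limma) was the largest toward males. Rpl7 itself had medians of 1131 and 1195 and a difference of 0.05 (adjusted p = 0.573 in limma), whose sign turned to -0.04 under scaling by the sum of the other genes.

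Small-subunit genes followed. Rps25, a protein of the small subunit's head, ran from 435 to 802 with a median of 675 in vehicle females and from 361 to 1222 with a median of 975 in vehicle males. Of 17 males, 16 were above the highest female, and the remaining male, C4232.2, was below every female. It differed by 0.48 (SE 0.11; adjusted p = 5.65e-05 in limma). Rps13 ran from 306 to 615 with a median of 482 in females and from 307 to 894 with a median of 668 in males. Of 17 males, 13 were above the highest female, and the difference was 0.45 (SE 0.11; adjusted p = 0.000221 in limma). Rps7 ran from 550 to 955 with a median of 782 in females and from 686 to 1814 with a median of 1044 in males. Its groups overlapped, with 10 of 17 males above the highest female, and the difference was 0.42 (SE 0.11; adjusted p = 0.000518 in limma). Rps12 ran from 114 to 254 with a median of 190 in females and from 115 to 393 with a median of 257 in males, with 9 of 17 males above the highest female. It differed by 0.50 (SE 0.13; adjusted p = 0.000582 in limma). The rest of the 18 were Rpl13a, Rpl30, Rpl39l, Rpl15, Rpl29, Rpl27, Rpl6, Rps27a, Rpl5, Rps4y2, Rpl9 and Rpl8, with differences from 0.20 to 0.49. Of 34 fits with a single vehicle embryo left out, Rpl8 did not pass in 20 and Rpl9 in 16. Rpl5 and Rpl11 with 5S ribosomal RNA bind Mdm2. Rpl5 had medians of 2155 in females and 2437 in males and was higher in males by 0.23 (adjusted p = 0.00678 in limma). Rpl11 had medians of 733 and 665 and a difference of -0.12 that did not pass (adjusted p = 0.263 in limma), and the pair was not tested against each other. Rps19bp1 had medians of 146 and 137 and a difference of 0.00 (adjusted p = 0.988 in limma).

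**Figure D3:**
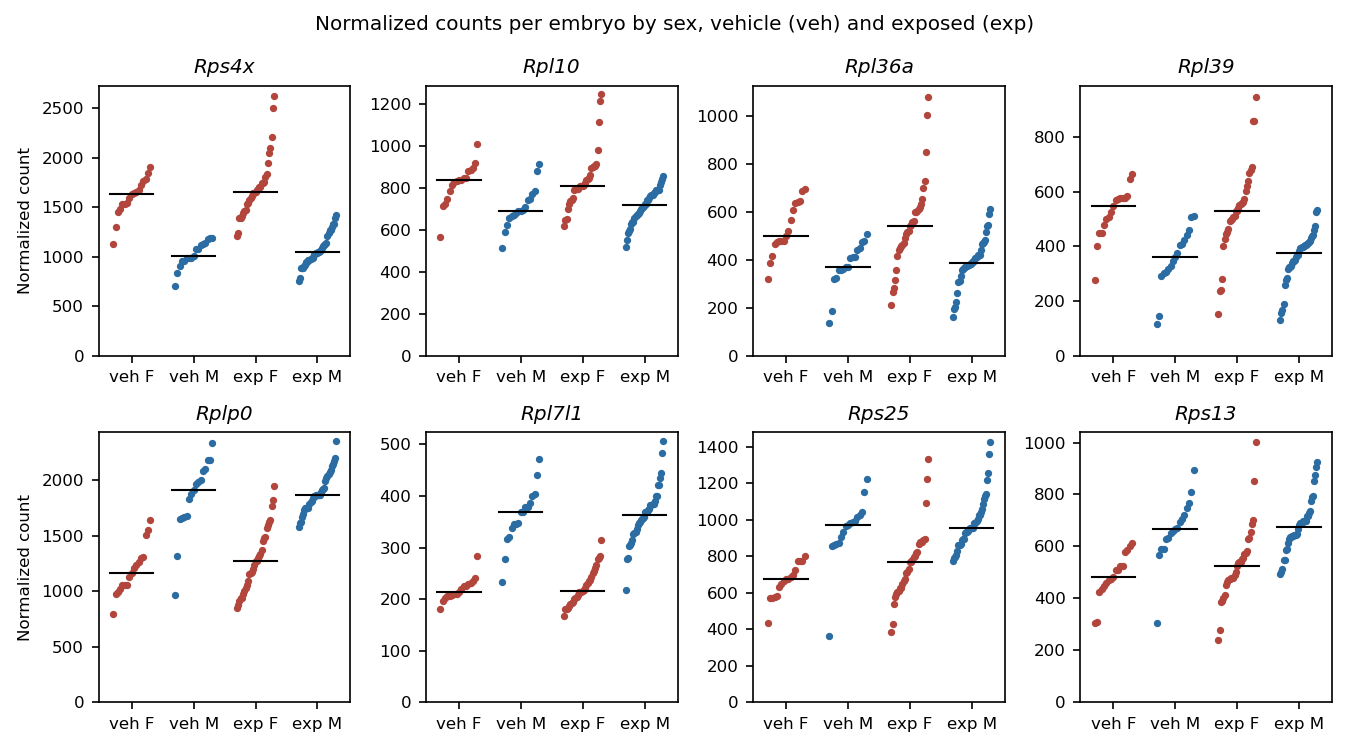
Normalized counts (y axis) of 8 members in every embryo, by sex and by vehicle or BaP exposure of the F0 dam (x axis). Points are embryos and bars are medians; Rps4x had medians of 1640 in vehicle females and 1004.5 in vehicle males, and Rplp0 had 1166 and 1910.

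Several members exist as pairs of a main gene and a paralogue, and the balance within a pair was described as the log2 ratio of normalized counts, paralogue over main gene, with no test. For the X-linked Rpl39 and its autosomal paralogue Rpl39l, known from the testis, the median ratio was -2.40 in vehicle females (-2.77 to -1.39) and -1.23 in vehicle males (-2.02 to 0.10). Rpl39l itself was higher in males, with medians of 106 and 156 and a difference of 0.49 (SE 0.14; adjusted p = 0.00231 in limma). For Rpl36al over Rpl36a the median ratio was 0.37 in females and 0.95 in males. For Rpl10l over Rpl10 it was -4.22 and -3.82, and for Rps4y2 over Rps4x it was -1.69 and -0.65. In all 4 pairs the main gene is X-linked and the paralogue autosomal. Rpl36al and Rpl10l themselves had differences of 0.15 and 0.11 that did not pass the test (adjusted p = 0.329 and 0.405 in limma). Rps4y2 had medians of 521 in females and 700 in males and differed by 0.32 (SE 0.12; adjusted p = 0.0212 in limma), a difference that did not pass under scaling by the sum of the other genes (adjusted p = 0.213, the highest over the alternatives). In the other 4 pairs both genes are autosomal. Rpl22l1 over Rpl22 had median ratios of 0.10 and 0.05, and Rps27l over Rps27 had 1.28 and 1.30. Rpl7l1 over Rpl7 had -2.43 and -1.76, and Rpl3l over Rpl3 had -8.65 and -9.62.

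Embryos of exposed F0 dams gave a separate set in which to ask the same question. Of 86 members, 32 were higher in males and 9 in females, or 37.2% and 10.5%, against 33% and 32.8% of all genes tested. The median difference was 0.12 over members and 0.00 over all genes tested. All 18 members higher in vehicle males were among these 32, which is 56.3% of them, and 5 of the 6 members higher in vehicle females were among the 9, which is 55.6%. Over all genes tested, 93.6% of those higher in vehicle males and 92.6% of those higher in vehicle females were higher in the same sex after exposure, and these made up 79.2% and 81.2% of the exposed calls. No member passed in opposite directions in limma, whether at an adjusted or an unadjusted p under 0.05. Rps15a was the member that did not pass again, with a difference of -0.18 (adjusted p = 0.110 in limma). Rps4x ran from 1212 to 2631 with a median of 1660 in the 31 exposed females and from 759 to 1427 with a median of 1045 in the 36 exposed males. Its groups overlapped, with 26 of 31 females above the highest male and a difference of -0.62 (SE 0.06; adjusted p = 5.45e-15 in limma). Rpl7l1 ran from 166 to 315 with a median of 217 in exposed females and from 219 to 506 with a median of 363 in exposed males. There 29 of 36 males were above the highest female, and the difference was 0.71 (SE 0.06; adjusted p = 3.97e-17 in limma). Rplp0 ran from 851 to 1952 with a median of 1277 in exposed females and from 1580 to 2352 with a median of 1866 in exposed males. The groups overlapped, with 11 of 36 males above the highest female, and the difference was 0.60 (SE 0.07; adjusted p = 2.13e-12 in limma). Members that passed in exposed embryos and not in vehicle embryos included Rpl3, Rpsa, Rps18 and Rpl38 toward males and Rps6, Rps16, Rps27l and Rpl11 toward females. Some calls depended on single embryos. Of 59 fits with a single embryo left out, Rps6 did not pass in 35, Rps16 in 30, Rpl11 in 25 and Rps27l in 21. Toward males Rps20, named here after its values were seen, did not pass in 32 of these fits and Rpl9 in 9. The count of 9 fell to 5 without any single one of 18 embryos. In those of these fits that left at least 2 embryos in every group, 32.3% to 33.0% of all genes tested were higher in females. With all embryos it was 32.8%.

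Whether exposure changed the sex difference was tested directly as an interaction. No member passed in limma: 0 of 86 at an adjusted p under 0.05 and 0 of 86 at an unadjusted p under 0.05, and 0 of 86 by edgeR's quasi-likelihood and likelihood ratio tests on recovered reads. Over all genes tested the shares were 0% adjusted and 2.04% unadjusted. The smallest interaction p among members was that of Rpl3l, with a difference of differences of 0.33 (SE 0.23; adjusted p = 1 in limma).

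Within single generations fewer members passed, with 5 or 6 vehicle embryos per sex. In F1, 5 members were higher in males and 4 in females, against 14.5% and 16.8% of all genes tested. In F2 the counts were 3 and 1, against 16.6% and 16.4%, and in F3 they were 7 and 2, against 16.1% and 16.2%. With 1 embryo left out, the F1 count of both directions ran from 3 to 17, with 3 without male C3774.3 and 17 without male C4232.2. Of all genes tested, 30.1% passed in either direction without C3774.3 and 28.6% without C4232.2, against 31.3% with all embryos. The cause of the range was not tested. With the litter as a random block, the replicate block that pairs brothers and sisters, 9 members passed in F2, against 40.6% of all genes tested in that fit, and 14 in F3, against 39.6%; without the block the shares of both directions were 33.0% and 32.3%. The F3 count of 9 fell to 5 without female D1388.3 (28.1% of all genes tested) and to 5 under scaling by the sum of the other genes (31.2%). By either edgeR test it was also 5 (28.1% by quasi-likelihood and 29.0% by likelihood ratio). Those edgeR fits lacked D1388.3, whose reads were not recovered, so test and embryo changed together. Rpl7l1, Rplp0 and Rps4x passed in each generation. Rpl7l1 differed by 0.76 in F1, 0.69 in F2 and 0.68 in F3 (adjusted p = 6.15e-05, 4.92e-05 and 6.46e-05 in limma). Rps4x differed by -0.69, -0.70 and -0.55 (adjusted p = 0.000162, 2.56e-05 and 0.000953 in limma). Rplp0 differed by 0.64, 0.63 and 0.60 (adjusted p = 0.00190, 0.000625 and 0.00114 in limma).

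The order of the sexes held within the deep F1 libraries and within the other F1 libraries, over vehicle and exposed embryos together. Rps4x had medians of 1594 in 5 deep females and 898 in 6 deep males, and of 1584 in the other 12 females and 1051 in the other 15 males. Rpl36a had medians of 283 and 191 in the deep libraries, and of 516 and 412 in the others. Rpl39 had medians of 241 and 152 in the deep libraries, and of 504 and 361 in the others. For Rpl36a and Rpl39 the deep libraries were lower in both sexes, and every deep female was below the lowest of the other females. Rplp0 had medians of 1024 in deep females and 1829 in deep males, and of 1266 and 1864 in the others. Rpl7l1 went the other way with depth, with 266 and 455 in the deep libraries and 203 and 343 in the others.

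Exposure was compared with vehicle within each sex and generation, for each dose and for the mean of all doses, in 24 comparisons that share the vehicle embryos of a sex and generation. No member passed an adjusted p under 0.05 in any of them, in limma, in edgeR's quasi-likelihood test or in edgeR's likelihood ratio test. Over all genes tested the adjusted share was 0% except for 0.0452% in F1 females at 2 mg/kg/day, 0.0452% in F3 males at 0.2 mg/kg/day, 0.00753% in F2 males at 0.2 mg/kg/day and 0.00753% in F3 females over all doses. At an unadjusted p under 0.05 the members' counts ranged from 0 to 31 of 86.

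Female F1 embryos at 2 mg/kg/day had 24 members at an unadjusted p under 0.05, all higher after BaP, against 14.5% of all genes tested, and the median over members was 0.30. The group held female D2582.1, whose share of 12.1% was the highest of all 101 embryos, and without that embryo 4 members had an unadjusted p under 0.05 (9.99% of all genes tested) and the median was 0.13. Deep libraries were in both groups, and without them the count was 34 (6.31%). Rpl39l had values of 82.5, 83.2, 86.5, 97.6 and 127 in F1 vehicle females and of 118, 118, 146, 171 and 280 at 2 mg/kg/day. A single vehicle female overlapped the exposed range, and the difference of 0.74 (SE 0.26) did not pass (adjusted p = 0.211 in limma). Rps25 had values of 435, 570, 575, 725 and 777 in vehicle females and of 733, 769, 804, 893 and 1337 at 2 mg/kg/day. Again the ranges overlapped, with a difference of 0.55 (SE 0.19; adjusted p = 0.211 in limma). The other F1 female comparisons had 0 members at 0.033 mg/kg/day (0.324% of all genes tested), 2 at 0.2 mg/kg/day (2.08%) and 1 over all doses (0.903%). Their medians over members were 0.08, -0.05 and 0.12.

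Male F1 embryos at 0.033 mg/kg/day, a group of 2, had 29 members at an unadjusted p under 0.05, of which 28 were higher after BaP, against 10.2% of all genes tested, and a median over members of 0.45. Without the deep libraries the count was 0 (4.74% of all genes tested) and the median 0.19. Without vehicle male C4232.2 alone the count was 1 (9.05% of all genes tested). Leaving out exposed male D2645.2 leaves 1 exposed embryo, so no count is given for that fit. Rpl36a had values of 137, 186, 370, 415 and 475 in F1 vehicle males and of 471 and 612 at 0.033 mg/kg/day. The groups overlapped through the highest vehicle male, the lowest 2 vehicle values belonged to deep libraries, and the difference of 0.92 (SE 0.36) did not pass (adjusted p = 0.414 in limma). At 0.2 mg/kg/day 0 members had an unadjusted p under 0.05 (2.14% of all genes tested), at 2 mg/kg/day 0 (2.91%) and over all doses 3 (3.41%). The medians over members were 0.14, 0.05 and 0.23.

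F2 embryos showed the fewest. In F2 females the unadjusted counts were 1 member at 0.033 mg/kg/day (1.34% of all genes tested), 0 at 0.2 (0.707%), 1 at 2 (1.83%) and 0 over all doses (1.05%). The lone member at 0.033 mg/kg/day was Rpl3l with a difference of -0.88 (SE 0.38; adjusted p = 1 in limma). In F2 males they were 0 at 0.033 mg/kg/day (0.534%), 0 at 0.2 (4.89%), 0 at 2 (1.78%) and 0 over all doses (2.16%). Medians over members lay between -0.09 and 0.12 in F2.

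Female F3 embryos at 2 mg/kg/day had 31 members at an unadjusted p under 0.05, all higher after BaP, against 13.4% of all genes tested, and a median over members of 0.37. With a single embryo left out the count ran from 2, without vehicle female D1388.3, to 47, without exposed female D4190.2, and the median from 0.31 to 0.47. Shares of all genes tested in those fits are not given, so these counts are not read as particular to the members. Rps7 ran from 550 to 878 in 6 F3 vehicle females and had values of 801, 1026, 1046 and 1263 at 2 mg/kg/day. The groups overlapped through the lowest exposed embryo, and the difference of 0.51 (SE 0.20) did not pass (adjusted p = 0.339 in limma). At 0.2 mg/kg/day, a group of 2 females, 2 members had an unadjusted p under 0.05, against 13.2% of all genes tested. These were Rplp0, with values of 1488 and 1640 against 798 to 1645 in vehicle females (difference 0.48, SE 0.22; adjusted p = 0.325 in limma), and Rpl3l, with 0.396 and 0.789 against 0.914 to 3.10 (difference -0.96, SE 0.44; adjusted p = 0.334 in limma). For Rplp0 both exposed values lay within the vehicle range, and for Rpl3l both lay below it at a level near the floor. At 0.033 mg/kg/day 0 members had an unadjusted p under 0.05 (3.9% of all genes tested) and over all doses 2 did (7.98%). In F3 males the unadjusted counts were 1 at 0.033 mg/kg/day (3.15%), 1 at 0.2 (10.5%), 0 at 2 (0.79%) and 2 over all doses (1.61%). The member at 0.2 mg/kg/day in F3 males was Rpl10, with a difference of 0.27 (SE 0.13; adjusted p = 0.464 in limma).

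Generations were compared among vehicle embryos of each sex. No member passed an adjusted p under 0.05 in limma or in either edgeR test, and 0% of all genes tested passed in limma. In females the unadjusted counts were 0 of 86 members for F2 minus F1 (0.579% of all genes tested), 0 for F3 minus F1 (2.57%) and 0 for F3 minus F2 (1.51%), with medians over members of 0.22, -0.00 and -0.22. In males they were 10 for F2 minus F1 (4.7%), 3 for F3 minus F1 (4.61%) and 1 for F3 minus F2 (1.48%), with medians of 0.18, 0.06 and -0.13. Rpl39 had the smallest p of the 10. It had values of 117, 146, 348, 361 and 423 in F1 vehicle males and ran from 291 to 509 in F2 vehicle males. The 2 lowest F1 values belonged to deep libraries, and without them the F1 values lay within the F2 range. The difference was 0.67 (SE 0.27; adjusted p = 0.971 in limma). In the comparisons with F1, generation and dosing window cannot be told apart. Deep libraries occurred in F1 alone, and for F2 minus F1 males the median over members was -0.05 without them and -0.01 with log2 reads as a covariate in limma.

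The genes that make and regulate ribosomes were read from fixed lists in the same vehicle sex comparison. Ribosome biogenesis factors leaned toward males: 39 of 57 were higher in males (68.4%) and 5 in females (8.77%), against 27.9% and 28.8% of all genes tested, with a median of 0.39, against the members' 0.08. Nip7, which acts in processing of large-subunit RNA, ran from 118 to 212 with a median of 157 in females and from 196 to 387 with a median of 268 in males, and differed by 0.76 (SE 0.08; adjusted p = 7.13e-13 in limma). Nle1, another large-subunit assembly factor, was higher in males by 1.53, at medians of 0.513 and 2.63. Ltv1, which acts in small-subunit export, went the other way with medians of 153 and 108 and a difference of -0.56 (SE 0.10; adjusted p = 1.15e-06 in limma). Utp14a was higher in males by 0.61.

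Of 14 genes of the RNA polymerase I machinery tested, 9 were higher in males (64.3%) and 2 in females (14.3%), with a median of 0.35. Polr1c, a subunit shared by polymerases I and III, ran from 125 to 204 with a median of 149 in vehicle females and from 218 to 562 with a median of 362 in vehicle males. These ranges did not overlap, and the difference was 1.21 (SE 0.08; adjusted p = 7.98e-23 in limma). Taf1a and Polr1b were higher in males by 0.56 and 0.58, and Twistnb and Taf1b were higher in females, with differences of -0.29 and -0.33. The next list held 21 other genes of translation whose mRNAs are known or likely to carry TOP tracts. Of these, 7 were higher in males (33.3%) and 0 in females in limma, against 27.9% and 28.8% of all genes tested. At an unadjusted p under 0.05 in limma the counts were 10 and 0, and the median was 0.16. Hnrnpa1 differed by 1.02, Eif3f by 0.62 and Eif3k by 0.55 (adjusted p = 2.39e-11, 1.15e-09 and 1.20e-08 in limma). Fau, a fusion gene whose product includes ribosomal protein S30, differed by 0.48, and its symbol is not one that the rule takes in.

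Of 16 regulators of TOP translation and of ribosome output, 6 were higher in males (37.5%) and 1 in females (6.25%), with a median of 0.31. Mlst8, a subunit of mTOR complexes, had medians of 6.80 in females and 17.2 in males and differed by 1.4965 (SE 0.16; adjusted p = 1.84e-13 in limma). Mtor itself was higher in females, with medians of 42.2 and 30.2 and a difference of -0.51 (SE 0.08; adjusted p = 6.82e-08 in limma). Max, the partner of Myc, differed by 0.92, and Rptor by 0.61. Of the 4 genes of the p53 response to free 5S particles, Trp53 was higher in males by 0.85 and Cdkn1a differed by -0.43. The 76 mitochondrial ribosomal protein genes, a separate family encoded in the nucleus, had 32 higher in males (42.1%) and 9 in females (11.8%), against 27.9% and 28.8% of all genes tested, with a median of 0.13. Mrpl19, Mrps18b and Mrps34 led toward males with 1.04, 0.91 and 1.14, and Mrps15 differed by -0.50.

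The remaining lists describe the cells. Germ cell markers had 4 of 10 higher in males and 5 in females; Nanos3 differed by 0.98 and Mael by -1.08. Of 7 meiotic entry genes tested, 6 were higher in females, among them Stra8 at -7.40, Rec8 at -3.86 and Dmc1 at -1.93. All 6 male germ cell genes tested were higher in males, among them Lefty2 at 6.87 and Lefty1 at 5.81. Of 3 pregranulosa markers tested, 1 passed in limma, Wnt4, which was higher in females, and the list had summed medians of 4.61 in females and 2.96 in males. Fetal Leydig markers had 1 and 1 of 3, with summed medians of 3.14 and 5.72, and 1 of 3 endothelial markers was higher in females, with summed medians of 41.4 and 36.1. Macrophage markers had 0 of 7 tested past the limma threshold and 0 at an unadjusted p under 0.05, with summed medians of 23.0 and 16.4. Erythroid markers had 0 of 4 at either threshold in limma, with summed medians of 1.40 in females and 1.44 in males and a single vehicle male at 4772. Stroma markers had 0 of 3 at the adjusted threshold in limma and 1 at the unadjusted, with summed medians of 1.95 and 2.65.

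Since the members moved together between embryos, their promoters were searched for shared letters. RefSeq promoters of build GRCm38.p6, each with 250 bases before and 50 after a transcription start, were found for 65 of 86 members, 77 promoters in all, beside 32851 promoters of all genes. On either strand, CCGGAAG was in 27 of the 77 (35.1%) against 8.86% of all promoters, TCTCGCG in 15 (19.5%) against 2.56%, AAGATGGC in 8 (10.4%) against 2.75%, and TATAAA in 7 (9.09%) against 13.6%. Within 20 bases on either side of the start and on the gene's strand, pyrimidine runs of the kind found in TOP tracts were searched. CTTTCC was in 11 of the 77 (14.3%) against 2.00% of all promoters, CTCTTT in 9 (11.7%) against 1.586%, CTTCCT in 9 (11.7%) against 3.14% and CTTTTC in 5 (6.49%) against 1.48%. A match is a description of letters, and the absence of one says only that these letters are not in the window.

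The windows of 4 members that carried the results are printed 5′ to 3′ on the gene's strand, from 70 bases before to 30 bases after the annotated start, with the searched letters in capitals. Rpl38, among the most variable members, lies on the plus strand at chr11:114668510-114668609 and holds CCGGAAG and CTTTCC. Rplp0, higher in males, lies on the plus strand at chr5:115559397-115559496 and holds TATAAA, which lies after the annotated start. Rps4x, higher in females, lies on the minus strand at chrX:102189362-102189461 and holds none of the 8 motifs in this window. Rpl36a, also higher in females, lies on the plus strand at chrX:134585584-134585683 and holds TATAAA, again after the annotated start.
Rpl38: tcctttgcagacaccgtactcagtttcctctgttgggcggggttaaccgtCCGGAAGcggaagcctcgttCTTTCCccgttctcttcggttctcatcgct
Rplp0: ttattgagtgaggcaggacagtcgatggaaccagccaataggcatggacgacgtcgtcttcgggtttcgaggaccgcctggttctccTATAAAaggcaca
Rps4x: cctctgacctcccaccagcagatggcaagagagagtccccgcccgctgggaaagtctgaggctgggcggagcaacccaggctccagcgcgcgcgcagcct
Rpl36a: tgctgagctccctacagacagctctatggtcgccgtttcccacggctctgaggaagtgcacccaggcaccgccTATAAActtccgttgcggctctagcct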

How the data were processed

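Poly(A) RNA of sorted primordial germ cells was measured in 101 embryos. Per the labels and the methods, the authors made cDNA with oligo-dT, trimmed reads with Trim Galore, aligned them with STAR to GRCm38/mm10, counted reads on exons with Rsubread and scaled libraries with the TMM method of edgeR; versions were not given in the sources used here. The deposited signal is thus gene counts divided by a library factor, here called normalized counts. From it, limma 3.58.1 in R 4.3.3 was fitted with a mean-variance trend to log2(normalized count + 0.5) of 13288 genes with a mean of at least 0.5, with the 24 groups of generation, sex and dose as terms. p-values were adjusted by Benjamini-Hochberg over all genes tested in each comparison, at a threshold of 0.05. As an alternative, edgeR 4.0.16 was run on whole reads recovered from 99 embryos (100% of values whole within 0.05 reads). Because the deposited values are scaled, that count test was not the main one. The study's methods used edgeR's likelihood ratio test.

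Other alternatives changed the pseudocount, the filter, the scaling, the samples in the fit, a litter block, depth and single embryos. The labels name no litters. Embryos that share the first part of an identifier were taken as a litter, and deviations of the brothers and sisters so paired from their group means had a median r of 0.288 over 43 pairs, and the fitted litter correlation was 0.257. Among the 99 embryos with recovered reads, no pair within a group was a copy: the lowest chi-square ratio over 184 such pairs was 5.44. Pairs across groups were not compared. Named were the X-linked members, paralogues with their main genes, members with the smallest p in each comparison, those at the ends of level and spread, Rpl5, Rpl11, the stalk genes, Rps19bp1, the closest genes outside the list, and leading genes of each other list. The other lists were TOP translation, ribosome biogenesis, polymerase I, TOP regulators, 5S particle and p53, meiotic entry, male germ cell genes, mitochondrial ribosomal proteins, and markers of germ, Sertoli, pregranulosa, fetal Leydig, endothelial, macrophage, erythroid and stroma cells. Some genes that this rule takes in are not reported here. Members and lists were chosen with earlier results of these data known. Promoter sequences came from RefSeq, build GRCm38.p6. The limma and edgeR fits were tested on simulated data for the vehicle sex comparison. Python 3.11.15 with pandas 2.3.3 and matplotlib 3.10.9 made summaries and figures.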

Additional observations from a re-analysis of the deposited data

Results flagged for a closer look

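In groups of 4 to 8 embryos, 98 sets of values were examined for an embryo far from the rest of its group. Values of 6 named members were among these sets but do not account for all of them. In all, 6 such values were found. Chance alone gives about 1 in 20. The values were high ones of Rps4x or Rpl10.

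F1 female D2582.1 at 2 mg/kg/day stood high for both genes. Its Rps4x was 2631, against 1619 to 1704 in the other 4 females of the group. Its Rpl10 was 1247, against 736 to 848. F1 female D2510.2 at 0.2 mg/kg/day stood high for both as well, with Rps4x at 2504 against 1212 to 1463 in the others and Rpl10 at 1112 against 619 to 750. Among males, F1 embryo D2593.1 at 2 mg/kg/day had Rps4x at 1306, against 787 to 985 in the others. F3 male D2549.3 at 0.033 mg/kg/day had Rps4x at 1332, against 985 to 1039.5 in the other 3. Both females were high for other members too. D2582.1 had the highest value of all embryos for Rpl36, Rps3, Rpl14, Rpl13 and Rpl19, and a share of all members of 12.1%. D2510.2 had the highest for Rps28, Rps29 and Rps27, and a share of 10.8%. The cause was not tested.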

How the results depend on the processing

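Each count of members past the threshold, the members named in the sex comparisons and each summed share were recomputed with another pseudocount, filter, test, scaling, litter block, sample set or depth treatment, and with single embryos left out. Outside the single-embryo fits, 444 of 460 recomputed counts and shares, each result counted once per alternative, stayed within 1.5 times their value or within 1 SD, and 16 did not. Of 753 recomputed differences of named members, counted likewise, 722 kept direction and side of the threshold, 18 no longer passed, 9 newly passed and 4 changed sign. The cause was not tested for any of these. Where the share of all genes tested in the same fit is given, it stands in brackets after the count or in the sentence with it. A moved count without such a share is not read as particular to the members.

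In vehicle embryos, members higher in females were 13 with libraries scaled by the sum of the other genes (32.4%). Members higher in males were 29 without embryos of more than 20000000 reads (28.2%). In exposed embryos, members higher in females were 5 with upper quartile scaling (32.1%). Members that differed by sex in F1 vehicle embryos were 9 (31.3%). They were 5 with no filter (27.4%), 3 with only the groups compared (23.4%) and 19 with log2 reads as a covariate (35.2%). In F2 they were 4 (33.0%), and were 9 with the replicate block by litter (40.6%) and 9 with only the groups compared (36.3%). With log2 reads as a covariate they were 10 (35.5%), and without embryos of more than 20000000 reads they were 8. In F3 they were 9 (32.3%), and were 5 with scaling by the sum of the other genes (31.2%) and 14 with the replicate block (39.6%). They were also 5 by edgeR's quasi-likelihood test (28.1%) and 5 by its likelihood ratio test (29.0%). These edgeR fits lacked F3 vehicle female D1388.3 as well, and limma without that embryo also gave 5. The replicate block moved no other count by more than 1.5 times. With it 25 members were higher in vehicle males (30.6%) and 7 in vehicle females (31.5%). In F2 and F3 the block also raised the share of all genes tested, as given above. Without the 5 most abundant members, which leaves fewer genes in the sum, the median share was 7.31% in vehicle females and 7.50% in exposed males.

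Signs changed for Rpl7 in vehicle embryos, at -0.0408 when scaled by the sum of the other genes, and for Rps27, at 0.0391 in vehicle embryos and -0.0104 in exposed embryos without those of more than 20000000 reads. Rpl10l in exposed embryos was at -0.0029 when scaled by the sum of the other genes and ranged from -0.0425 to 0.0991 over the single-embryo fits, with the lowest without F1 male D2645.2 at 0.033 mg/kg/day. With all embryos none of these passed the threshold in limma.

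The 8 F1 males at 2 mg/kg/day, a group of more than 6, were never left out. In groups of 2 the lone embryo that remained was assumed to vary like the other groups. With each of the other 93 embryos left out in turn, members higher in vehicle males ranged from 16 to 29 and in vehicle females from 5 to 7. Over the same vehicle fits 27.1% to 28.4% of all genes tested were higher in males and 27.8% to 29.7% in females. In exposed embryos the ranges were 27 to 37 for males and 5 to 9 for females. Members that differed by sex ranged from 3 to 17 in F1, 3 to 5 in F2 and 5 to 12 in F3 vehicle embryos. The shares of all genes tested ranged from 25.4% to 30.5% in F1, 28.6% to 34.7% in F2 and 28.1% to 33.0% in F3. Every comparison of exposure or generation and the interaction stayed at 0 to 0 in these limma fits. The count in vehicle males was 29 without F1 male C4232.2. The F1 count was 17 without C4232.2, 3 without male C3774.3, and 4 without female C4321.6 or female D1961.1. The F3 count was 5 without female D1388.3. The count in exposed females was 5 without any single one of F1 embryos D2582.1, D2271.1, D2595.1, C4322.2, D1190.1 and D2510.2, F2 embryos D4028.2, D4028.3, D3136.2, D1040.2 and D3371.1, and F3 embryos D2032.2, D2204.1, D4190.1, D2374.1, D2374.5, D1464.1 and D4021.2. A share over genes outside the mitochondrial genome was not run, since no such gene is listed in the table. Depth was 5004382 reads or more in each embryo with recovered reads, and its effect on low members was not tested beyond these settings.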
